A study of Mus musculus with 4 samples.

Results

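Transcript levels in whole fetal testes were compared between embryonic day 14.5 (E14.5) and embryonic day 13.5 (E13.5), the step at which male germ cells settle into their own fate while the somatic testis goes on differentiating. The comparison comprised the 2 one-colour arrays of E14.5 and the 2 of E13.5, which are 4 of the 8 arrays of a series that ran from E12.5 to E15.5. All gonads came from wild-type male mice of the line MCH, with no allele or treatment that differed between stages, and the series text describes the arrays of a stage as biological duplicates. How many embryos went into an array is not given in the sources used here, and p-values measure only the spread between duplicates.

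In the fetal testis, Sertoli cells enclose the germ cells in cords, and Leydig cells between the cords make androgens and insulin-like peptides. Male germ cells are held back from meiosis, in part because CYP26B1 of Sertoli cells degrades retinoic acid, and they shut down the pluripotency programme inherited from primordial germ cells while they turn on genes for silencing transposons. Nodal signalling, with its co-receptor Cripto and its feedback inhibitors of the Lefty family, is active for a short time in these germ cells.

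The E13.5 arrays lay on slides 1 and 2, 1 on each, and both E14.5 arrays lay on slide 3, which was scanned in a session of its own and read with a later release of the scanner software. Slide and stage therefore cannot be told apart in any value of this comparison. Between 26404 and 27983 of 41174 probes were well above background on each of the 4 arrays, or 64.1% to 68.0%. The germ cell gene Ddx4, the Sertoli cell genes Amh and Dhh and the Leydig cell gene Insl3 were well above background on all 4. Across genes, the E13.5 arrays correlated at r = 0.981, the E14.5 arrays at 0.982 and arrays of different stages at 0.944 to 0.963, with probe sequence shared by all of them. Of 10 spike-in controls, 7 were above background on all 8 arrays, and the duplicates of E14.5 stood apart in them. On E14.5 array 1 all 7 lay below their E13.5 mean, by a median log2 difference of -1.94, and on E14.5 array 2 all 7 lay above it, by a median of 0.55. Their stage means differed by a median of -0.70, from -1.44 to -0.16. Bright corner control spots were at 6.43 and 9.64 on the E13.5 arrays and at 3.32 and 4.77 on the E14.5 arrays. Negative control and dark corner spots, not above background, differed by -0.20 and -0.23. What lay behind these differences was not tested. For 101 genes the level on E13.5 array 2 exceeded that on E13.5 array 1 by more than 3 on the log2 scale, and for 72 of these the same held between the E12.5 arrays of the same slides. Of these 101 genes, 89 had a lower mean at E14.5 and 1 was called. Picking genes by a high E13.5 array 2 raises their E13.5 mean and their spread, so both counts follow in part from the choice.

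Levels are given as log2 of the background-corrected signal minus the 75th percentile of the array, so a level of 0 equals that percentile, and differences are E14.5 minus E13.5 on that log2 scale. The value after ± is the standard error from limma with 2 arrays per stage. A gene was called when its Benjamini-Hochberg adjusted p from limma was under 0.05, over 21986 genes, 13474 of which had a gene symbol. By this rule 2746 genes were called, 12.5% of those tested, with 1416 higher at E14.5 (6.44%) and 1330 lower (6.05%). Counts of called members of the gene lists below are to be read beside these shares, and several lists lay near them. The median difference of all genes was -0.02, and 48.9% of genes were positive. The 2 arrays of E14.5 did not overlap the 2 of E13.5 for 60% of genes, 29.2% higher and 30.8% lower, so separate arrays alone set few genes apart. Called differences started at 0.65, had a median size of 1.31 and exceeded 2 in 318 genes that rose and 206 that fell. Among called genes, 333 that rose were not well above background on either E13.5 array, and 154 that fell on neither E14.5 array. At both stages this held for 45 called genes. The size of such differences is uncertain, and the counts above 2 include genes of this kind. Counts fell steeply with fewer arrays: leaving out array 1 or array 2 of E13.5 left 431 or 219 genes called, and leaving out array 1 or array 2 of E14.5 left 395 or 1931. Of 119 called genes picked by the naming rule, 76, 83, 79 and 34 lost their call in those 4 fits, in that order. With the spread estimated from the 4 arrays of these stages alone, 779 genes were called, and with the array number as a replicate block 1611.

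**Figure D1:**
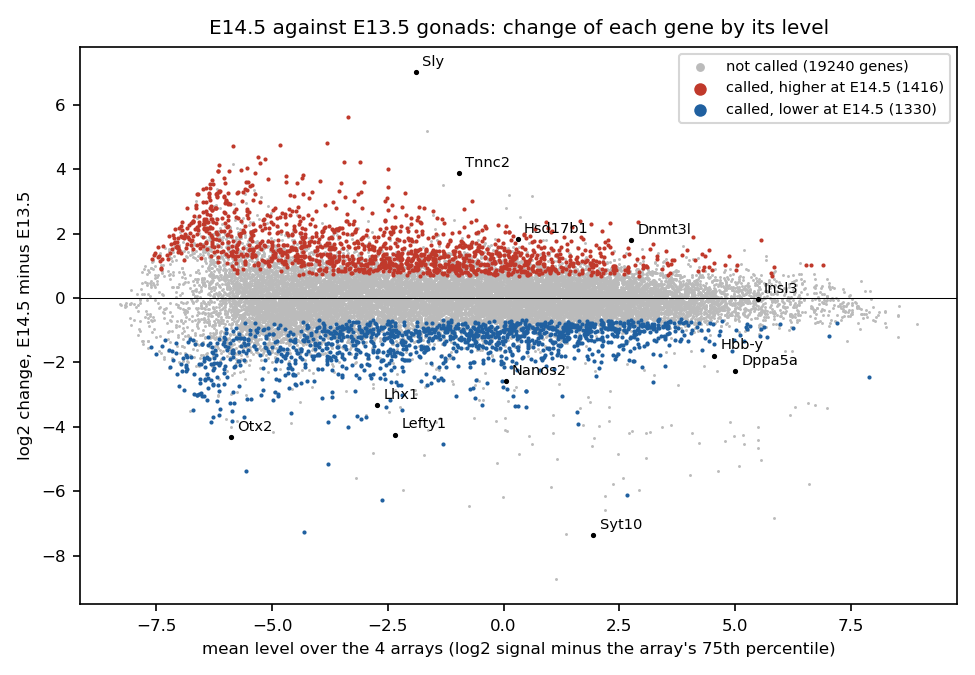
Each point is 1 of 21986 genes, with the mean level over the 4 arrays (log2 signal minus the 75th percentile of the array) on the horizontal axis and the log2 difference, E14.5 minus E13.5, on the vertical axis. Red points are the 1416 genes called higher and blue points the 1330 called lower, and 83 genes that were lower by more than 3 stay grey, 75 of them with E13.5 array 2 more than 1 above E13.5 array 1.

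Genes measured by several probes gave a check within the arrays. Of 5052 such genes, 587 were called through their brightest probe, and in 440 of these (75%) all probes had the same sign, against 62% of all genes with several probes. Every probe was itself called in 1 direction for 127 genes, 2.51% of genes with several probes, of which 64 rose and 63 fell. The probes of a gene share the arrays and their slides, so their agreement bears on the probe and not on the slide.

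Germ cell genes moved in both directions. Of 20 genes of pluripotency and primordial germ cells tested, 7 fell, 0 rose and 13 were not called, with a median of -0.98 beside -0.02 over all genes. Of 16 genes of male germ cell fate and the piRNA pathway, which makes small RNAs that silence transposons, 3 rose, 1 fell and 12 were not called, and the median was 0.52. In whole gonads, fewer germ cells and less RNA per germ cell cannot be told apart. Ddx4, an RNA helicase found throughout the germline, was at 3.84 and 3.87 at E13.5 and at 4.56 and 3.72 at E14.5, a difference of 0.28 ± 0.34 that was not called (adjusted p = 0.600).

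Dppa5a, an RNA-binding protein gene of pluripotent cells, was measured by 2 probes. Its brighter probe gave levels of 6.01 and 6.27 on the E13.5 arrays and 3.67 and 4.05 on the E14.5 arrays, and the other gave 3.50 and 3.32 at E13.5 and 1.76 and 1.79 at E14.5. Both probes were lower on each E14.5 array than on either E13.5 array, and the gene fell by 2.28 ± 0.23 (adjusted p = 0.00663) on the log2 scale. Sox2, a core transcription factor of pluripotency, went from -0.23 and -0.11 to -2.01 and -2.60 and fell by 2.13 ± 0.31 (adjusted p = 0.0140). Dppa3, which protects DNA methylation marks in early embryos and is highly transcribed in primordial germ cells, went from 5.79 and 5.75 to 4.23 and 4.02 and fell by 1.65 ± 0.23 (adjusted p = 0.0132). For all of these genes the stages did not overlap, and the duplicates of a stage differed far less than the stages did.

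Utf1, a chromatin factor gene of pluripotent cells, fell by 1.96 ± 0.37, with E14.5 arrays at -0.78 and 0.16 that lay further apart than the E13.5 arrays at 1.68 and 1.63. Esrrb, an orphan nuclear receptor of the same network, fell by 1.59 ± 0.22, and Nanos3, which keeps primordial germ cells alive, by 1.10 ± 0.23. Pou5f1, encoding OCT4, was at 2.95 and 3.08 and then at 1.64 and 2.18, a fall of 1.10 ± 0.26 (adjusted p = 0.0422). That call was lost with the slide as a random block and under 6 other choices of processing. It was also lost without either E13.5 array or E14.5 array 1, with differences of -1.37 to -0.83 over the single arrays left out. Ifitm3 and Sall4, both genes of primordial germ cells, had larger differences of -4.17 and -2.79 but were not called (adjusted p = 0.0739 and 0.287). Their E13.5 arrays stood far apart, at 3.73 and 6.75 for Ifitm3 and at -1.10 and 3.01 for Sall4, and the E12.5 arrays of the same slides differed in the same way, at 3.77 and 7.03 and at -0.98 and 3.30. Kit, the receptor for stem cell factor, was 0.76 ± 0.23 higher and not called (adjusted p = 0.0776).

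Nanos2, an RNA-binding protein that fixes the male fate of germ cells, fell by 2.57 ± 0.41 (adjusted p = 0.0170), from 1.28 and 1.39 to -1.37 and -1.10. Its difference over the day before, E13.5 against E12.5, was 3.12, and that over the day after was -3.93. Those neighbouring steps use the same E13.5 or E14.5 arrays, so they are not independent of this one, here or in the following values. Dnmt3l, which guides de novo methylation of DNA in these cells, rose by 1.79 ± 0.34 (adjusted p = 0.0264), from 2 and 1.72 to 3.47 and 3.82, after a difference of 5.10 in the step before. The de novo methyltransferase genes Dnmt3a and Dnmt3b had differences of -0.01 and 0.11 and were not called. Dnmt3a had 3 probes that did not agree, running from -0.01 at the brightest to 0.91.

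Piwil2, a PIWI protein that binds piRNAs, rose by 1.54 ± 0.22, with levels of 1.40 and 1.19 at E13.5 and 3.05 and 2.62 at E14.5. Tdrd1, a tudor protein of the germ granules in which piRNAs are made, was at 3.23 and 3.24 and then at 5.10 and 4.32, a rise of 1.48 ± 0.33, while its second probe gave 0.71. Adjusted p was 0.0133 for Piwil2 and 0.0369 for Tdrd1. Germline genes that are held silent elsewhere by promoter methylation had a median of 0.34 over 20 tested, with 1 that rose, Tdrd1 itself, and 2 that fell, Sycp1 and Dazl. Dazl, an RNA-binding protein that licenses germ cells for sexual differentiation, fell by 0.96 ± 0.24 (adjusted p = 0.0473), and its second probe gave -2.27. The call of Dazl was lost in 11 of 15 alternatives, among them the slide as a random block and each of the 4 arrays left out, with differences of -1.19 to -0.73 for the latter. Dppa5a kept its call with any single array left out. Without either E13.5 array, calls were lost for Sox2, Dppa3, Nanos2, Dnmt3l and Piwil2. Without E14.5 array 1 they were also lost for Dppa3, Nanos2, Dnmt3l and Piwil2, and without E14.5 array 2 for Dnmt3l. Over the single arrays left out, differences stayed within -2.43 to -1.83 for Sox2, -1.75 to -1.55 for Dppa3 and -2.70 to -2.43 for Nanos2. Those of Dnmt3l stayed within 1.61 to 1.96 and those of Piwil2 within 1.33 to 1.75.

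**Figure D2:**
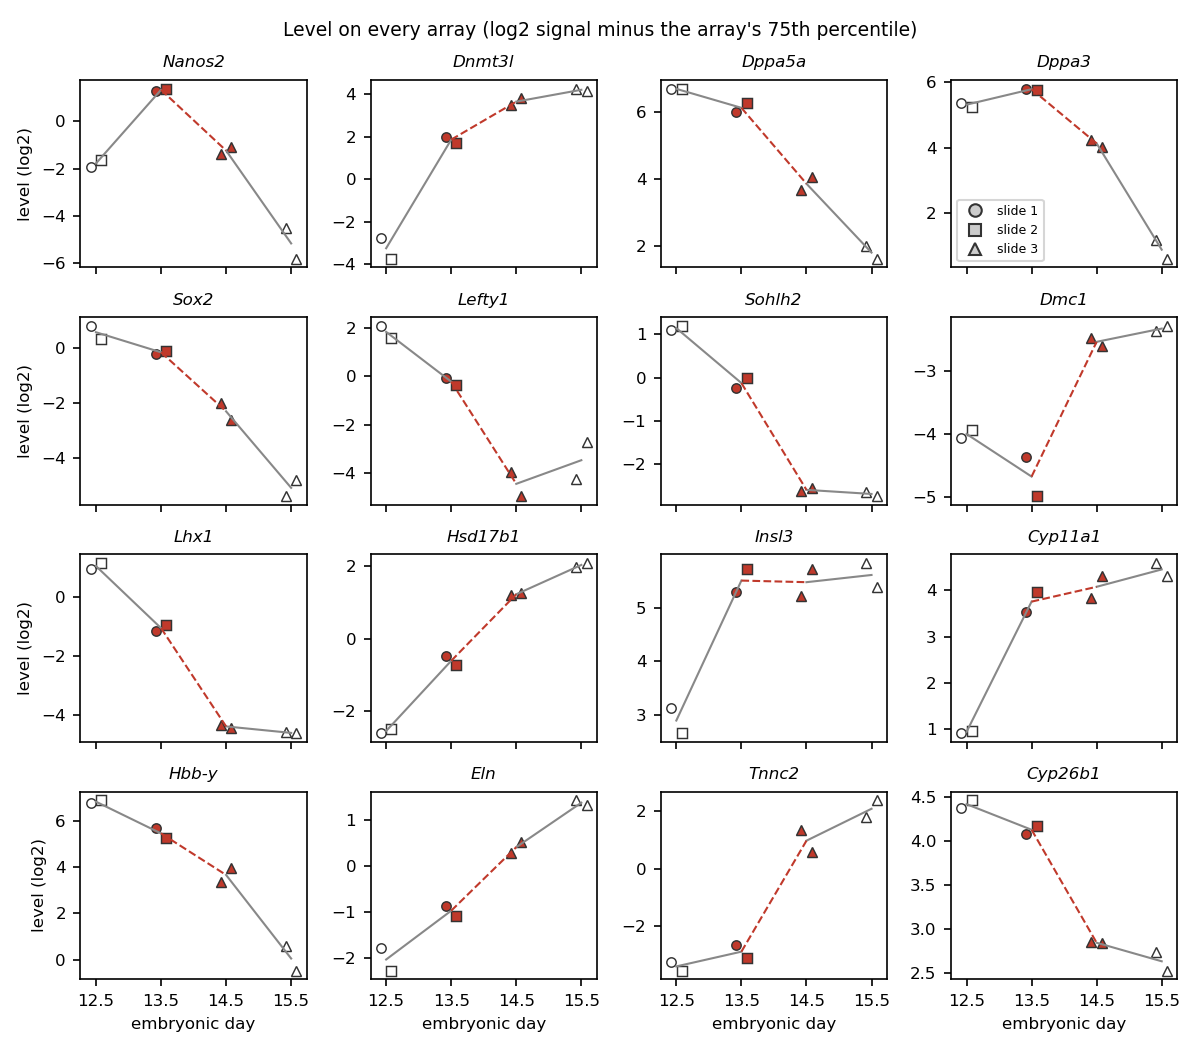
Level of 16 genes (log2 signal minus the 75th percentile of the array) on each of the 8 arrays against embryonic day, with filled symbols for the 4 arrays compared here and symbol shapes for the 3 slides. Lines join stage means, dashed for the step across slides: Dppa5a, Dppa3, Sox2 and Hbb-y fall in this step, Dnmt3l and Hsd17b1 rise, and Insl3 lies at 5.29 and 5.73 at E13.5 and at 5.23 and 5.73 at E14.5.

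Nodal pathway genes were lower where called. Among 12 genes tested, 3 fell, 0 rose and 9 were not called, with a median of -0.48. Lefty1, a secreted feedback inhibitor of Nodal, had levels of -0.08 and -0.36 at E13.5 and -3.95 and -4.97 at E14.5, so that the stages were separated by far more than the duplicates, and it fell by 4.24 ± 0.55 (adjusted p = 0.0112). Without either E13.5 array the call of Lefty1 was lost, with differences of -4.75 to -3.73 over the single arrays left out. Foxh1, the DNA-binding partner of SMAD proteins in Nodal signalling, fell by 1.31 ± 0.23. Lefty2 differed by -0.46 ± 0.22 and Tdgf1, which encodes Cripto, by -1.15 ± 0.72, neither of them called (adjusted p = 0.194 and 0.310). Tdgf1 was at -3.32 and -5.38 on the E13.5 arrays and at -5.63 and -5.37 on the E14.5 arrays, so the stages overlapped. Nodal itself was not tested here.

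Genes of meiosis moved in both directions: of 18 tested, 4 rose, 2 fell and 12 were not called, and the median was 0.08. Dmc1, the recombinase of meiotic strand exchange, rose by 2.14 ± 0.24 (adjusted p = 0.00813), from -4.37 and -4.99 to -2.48 and -2.61. Tex12, part of the central element of the synaptonemal complex, rose by 1.46 ± 0.17 (adjusted p = 0.00837), and its second probe gave 1.73. Tex15, needed for meiotic recombination and transposon silencing in male germ cells, rose by 1.23 ± 0.24 and Spo11, which makes the DNA breaks of meiosis, by 0.87 ± 0.19. The second probe of Spo11 gave 0.28. Sohlh2, a helix-loop-helix factor of early germ cell differentiation, went the other way, from -0.25 and 0 to -2.63 and -2.56, and fell by 2.47 ± 0.18 (adjusted p = 0.00403). Duplicates of Sohlh2 lay close together at both stages, and its neighbouring steps were -1.27 and -0.09. Sycp1, a transverse filament protein of the synaptonemal complex, fell by 0.92 ± 0.22. Stra8, the gatekeeper of meiotic entry, was at 1.64 and 1.71 at E13.5 but at 1.40 and 0.03 at E14.5, a difference of -0.96 ± 0.42 that was not called (adjusted p = 0.175). Dmc1 and Sohlh2 kept their calls under every alternative run, single arrays left out included, whereas Tex12 lost its call without E13.5 array 2, at a difference within 1.39 to 1.52.

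Of 15 genes of retinoic acid metabolism and response, 1 fell and 14 were not called. The one called was Cyp26b1, the enzyme that degrades retinoic acid, at 4.08 and 4.17 at E13.5 and at 2.85 and 2.84 at E14.5, a fall of 1.28 ± 0.17 (adjusted p = 0.0121). Its duplicates lay close together at both stages. Without either E13.5 array or E14.5 array 1 its call was lost, with differences of -1.33 to -1.23. The retinoic acid synthase genes Aldh1a1 and Aldh1a2 had differences of -0.29 and -0.10 and were not called.

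Among Sertoli cell genes, the steroid enzyme gene Hsd17b1 rose most. It encodes a 17-beta hydroxysteroid dehydrogenase, and its levels of -0.49 and -0.74 at E13.5 and 1.20 and 1.25 at E14.5 gave a rise of 1.84 ± 0.18 (adjusted p = 0.00627), with differences of 1.94 in the step before and 0.81 in the step after. Hsd17b1 kept its call under every alternative run. Across the 29 Sertoli cell genes tested, 2 rose and 2 fell, with a median of 0.04. Cst8, a cystatin protease inhibitor gene, rose by 0.96 ± 0.16. Cldn11, a claudin of Sertoli cell tight junctions, fell by 1.20 ± 0.26, and Fgf9, a growth factor that sustains Sertoli cell fate, by 0.79 ± 0.18. Other defining genes of the cell type were not called. Amh, the hormone that removes the Müllerian ducts, was at 1.22 and 0.99 and then at 0.66 and 0.61, with a difference of -0.47 ± 0.19 (adjusted p = 0.154). Dhh, the Hedgehog ligand of Sertoli cells, differed by -0.19 ± 0.35. Sox9, the transcription factor of Sertoli cell fate, had probes that disagreed, at 0.79, 0.46 and -0.74.

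Insl3, Cyp17a1 and Cyp11a1 of Leydig cells, which had risen in the step before, were not called over this one. Insl3, the insulin-like peptide hormone of Leydig cells, differed by -0.03 ± 0.30 after 2.62 in the step before. Cyp17a1, which makes androgen precursors, differed by 0.13 ± 0.26 after 2.04, and Cyp11a1, which makes pregnenolone from cholesterol, by 0.32 ± 0.25 after 2.81. Adjusted p for these 3 genes was 0.951, 0.758 and 0.402, which does not show that their levels were equal. Star, the carrier of cholesterol into mitochondria, differed by 0.62 ± 0.22 at its brighter probe (adjusted p = 0.109) and by 1.30 at its other probe, which was itself called (adjusted p = 0.0262). Lhcgr, the receptor for luteinising hormone, was at -4.83 and -4.27 at E13.5 and at -3.25 and -2.57 at E14.5, without overlap, and its difference of 1.64 ± 0.45 was not called (adjusted p = 0.0601).

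Calls in the list of 21 Leydig cell and steroid genes numbered 2, both higher, and its median was 0.13. Hsd3b6, a 3-beta hydroxysteroid dehydrogenase, was at 0.14 and 0.40 and then at 1.68 and 1.27, a rise of 1.21 ± 0.24 (adjusted p = 0.0281), as large as the 1.21 of the step before. Its family has close copies in the genome, whose transcripts a probe may share. Cyp51, the lanosterol demethylase of cholesterol synthesis, rose by 1.10 ± 0.23 (adjusted p = 0.0318), with its other probes at 1.38 and 0.06. Among 24 genes of cholesterol synthesis and uptake, Cyp51 was the one that rose, and 2 fell, Hsd17b7 and Stard4. Both of these had a probe of opposite sign, at 0.45 for Hsd17b7 and up to 0.86 for Stard4. Hedgehog response genes, which report signalling from Sertoli to interstitial cells, had 0 of 11 called by limma and 3 at an unadjusted p under 0.05, with Ptch1 at -1.24 ± 0.41 (adjusted p = 0.0938) and Gli1 at -0.67 ± 0.49.

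Promoters of the steroid genes that rose are shown because NR5A1, the nuclear receptor that activates many steroid genes, binds the motif AAGGTCA. Of Hsd17b1, Hsd3b6 and Cyp51, all but the first matched RefSeq promoter entries of the build GRCm38.p6. The 250 bases before the gene start, 5′ to 3′ on the strand of the gene, are at chr3:98814444-98814693 (minus strand) for Hsd3b6 and at chr5:4104698-4104947 (minus strand) for Cyp51. They hold 0 matches on either strand, so no letters are in capitals, and 4.08% of 32851 promoters of that length hold at least 1. No match says only that these letters are not in this window.
Hsd3b6: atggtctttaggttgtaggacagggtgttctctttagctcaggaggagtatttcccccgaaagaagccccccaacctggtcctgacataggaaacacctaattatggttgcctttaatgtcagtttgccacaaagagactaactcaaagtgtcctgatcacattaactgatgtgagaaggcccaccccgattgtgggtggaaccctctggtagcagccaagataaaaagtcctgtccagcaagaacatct
Cyp51: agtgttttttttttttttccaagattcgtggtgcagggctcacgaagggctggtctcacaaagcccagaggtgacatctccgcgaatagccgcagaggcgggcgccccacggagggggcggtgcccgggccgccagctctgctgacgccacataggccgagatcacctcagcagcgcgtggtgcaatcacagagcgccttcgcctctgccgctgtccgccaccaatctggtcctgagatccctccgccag

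Extracellular matrix genes were higher where called, while called genes of interstitial progenitors and PDGF signalling went both ways. The counts below stand beside 6.44% of all genes called higher and 6.05% called lower. Among 31 extracellular matrix genes, 8 rose, 0 fell and 23 were not called, with a median of 0.25. That median was 0.13 without E13.5 array 2, 0.54 without E14.5 array 1 and 0.01 without E14.5 array 2. Eln, elastin, was at -0.87 and -1.09 and then at 0.28 and 0.52, a rise of 1.37 ± 0.23 (adjusted p = 0.0183), and it was 0.97 higher again in the step after. Fbn1, the fibrillin on which elastic fibres are laid, rose by 1.18 ± 0.25, and Fbln5, which organises those fibres, by 1.16 ± 0.24. The others that rose were Ogn, Fbln1, Nid1, Lamb1 and Col3a1, by 1.15, 1.14, 1.05, 0.94 and 0.67. With the spread taken from these 4 arrays alone, all 8 calls were lost. Of 19 genes of interstitial progenitors and PDGF signalling, 2 rose, 1 fell and 16 were not called, with a median of 0.27. Pdgfra, a growth factor receptor of these progenitors, rose by 0.87 ± 0.20, and its second probe gave 0.46, while Pdgfb, a ligand, rose by 1.18 at 1 probe and gave 0.02 at the other. All 3 calls were lost with arrays scaled to their medians.

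Striated muscle genes, a list drawn from skeletal and cardiac muscle, had 3 of 19 members that rose and 0 that fell. Which cells of the dissected gonads expressed them was not tested. Over all genes, 6.44% were called higher and 6.05% lower. The median of the list was 0.27. Without E13.5 array 1 the median was 0.84, without E13.5 array 2 it was 0.13, and without E14.5 array 1 it was 0.69. Tnnc2, troponin C of fast muscle, rose by 3.88 ± 0.34 (adjusted p = 0.00505), from -2.68 and -3.12 to 1.36 and 0.59. Myh7, a slow and cardiac myosin heavy chain, rose by 2.09 ± 0.28 at 1 probe and 2.05 at the other, with levels of -0.09 and 0.07 at E13.5 and 2.37 and 1.80 at E14.5 at the first. The call of Myh7 was lost without either E13.5 array or E14.5 array 1, with differences of 1.81 to 2.38 over the single arrays left out. Tnni2 rose by 1 ± 0.17, and the remaining 16 of 19 were not called. The muscle regulators Myod1 and Myog differed by 0.78 and -0.55. Of 14 smooth muscle and peritubular genes, Cnn1 rose, by 0.84 ± 0.21, and 13 were not called, among them Acta2 at 0.40 ± 0.19 (adjusted p = 0.206).

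**Figure D3:**
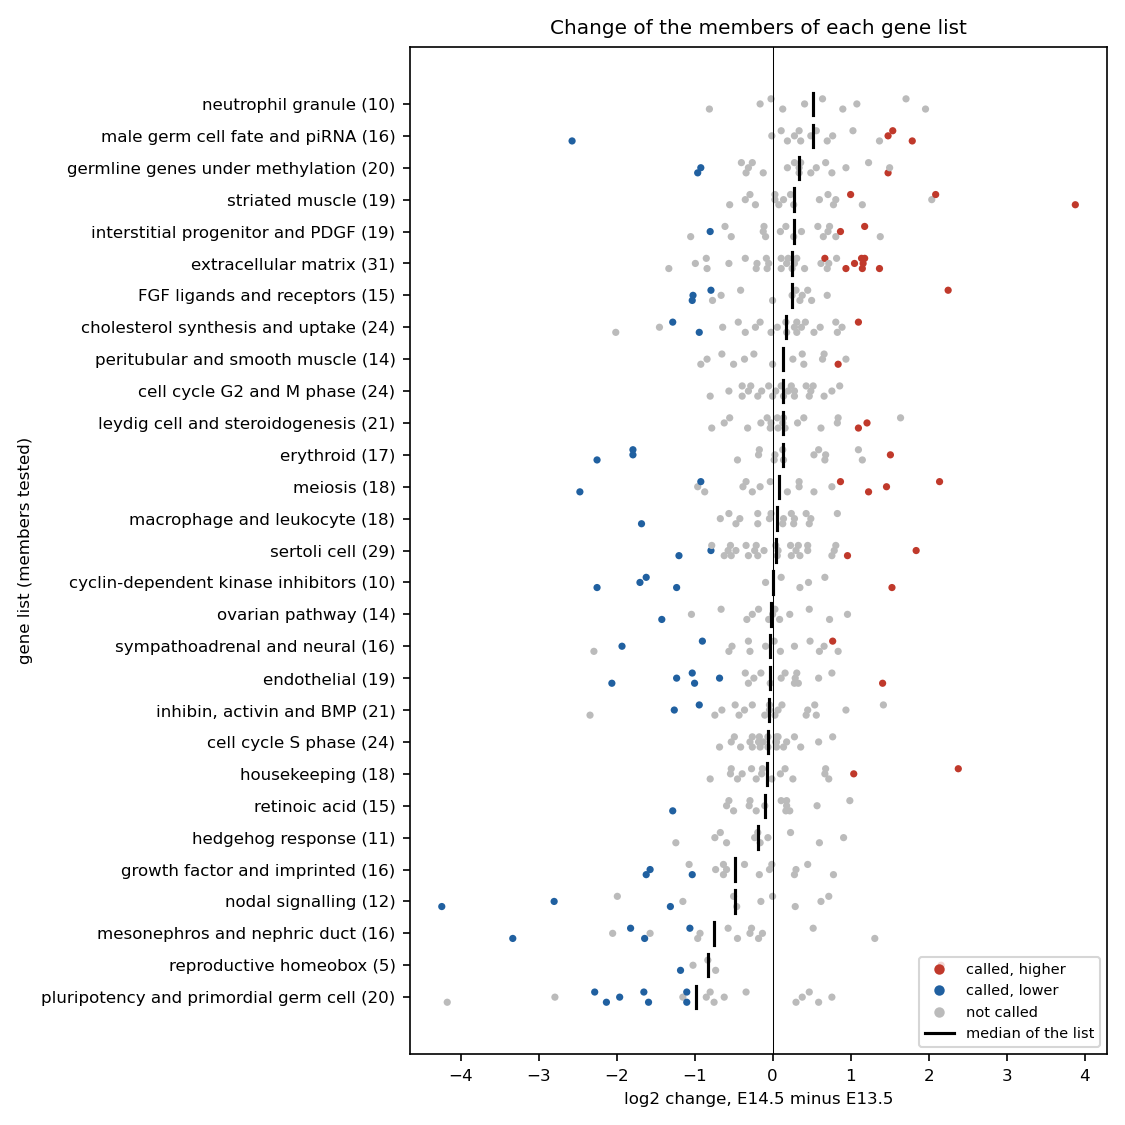
Log2 difference, E14.5 minus E13.5, of each tested member of 29 gene lists, one row per list, with the number of members tested in brackets. Red and blue points are members called higher and lower and the black bar is the median, which runs from -0.98 for pluripotency and primordial germ cell genes to 0.52 for the male germ cell and neutrophil lists.

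Embryonic globin genes fell together. Hbb-bh1, an embryonic beta-like globin, was at 2.09 and 1.73 and then at -0.53 and -0.14 and fell by 2.25 ± 0.27 (adjusted p = 0.00936), and its second probe gave -1.69. Hbb-y fell by 1.79 ± 0.38, with levels of 5.67 and 5.24 and then 3.37 and 3.95, and Hba-x, the embryonic alpha-like globin, by 1.79 ± 0.24. Steps before and after were -1.99 and -3.00 for Hbb-bh1, -1.37 and -3.61 for Hbb-y and -1.40 and -2.55 for Hba-x. Of 17 erythroid genes tested these 3 fell, 1 rose and 13 were not called, among them the adult globin genes Hba-a1 at -0.17 and Hbb-bt at 0.53. The call of Hbb-y was lost without any 1 of the 4 arrays, with differences of -2.08 to -1.5.

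Genes listed for the nephric duct and mesonephros, tissue beside the gonad, were lower where called. The list includes general epithelial genes, and which cells of the dissected gonads expressed its members was not tested. Of 16 tested, 4 fell, 0 rose and 12 were not called, and the median was -0.75. Lhx1, a transcription factor of the duct, was at -1.17 and -0.95 and then at -4.35 and -4.44, a fall of 3.33 ± 0.18 (adjusted p = 0.00403) that held under every alternative run and followed a difference of -2.11 in the step before. Cdh1, the epithelial cadherin, fell by 1.06 ± 0.27, and Pax2, another transcription factor of the duct, was at least 2.59-fold lower, being not well above background at E14.5. For such a bound the brighter stage's mean was set against the dimmer stage with each dim array raised, where its value was below it, to the weakest signal that counted as above background on that array. Pax8, a partner of Pax2, differed by 1.31 and was not called. The part of these genes, or of muscle genes, in other results was not tested.

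Of 19 endothelial genes, 5 fell, 1 rose and 13 were not called, with a median of -0.03. Kdr, the main receptor for vascular endothelial growth factor, was at 1.21 and 1.10 and then at -0.01 and -0.15 and fell by 1.23 ± 0.19 (adjusted p = 0.0157). Its call was lost without either E13.5 array or E14.5 array 1, with differences of -1.30 to -1.16 over the single arrays left out. Cldn5 and Tie1, a junction protein and a receptor of vessels, fell by 1.03 and 1, Plvap fell by 0.68, and Erg, a vessel transcription factor above background on 1 E13.5 array and on 0 E14.5 arrays, was at least 1.61-fold lower. Vwf, the clotting factor carrier of mature vessels, rose by 1.41 ± 0.31, and Pecam1, a general endothelial adhesion protein, differed by 0.31 ± 0.34 (adjusted p = 0.557). Among 18 macrophage and leukocyte genes, Cx3cr1 fell by 1.68 ± 0.30 and 17 were not called. Of 10 neutrophil granule genes limma called 0, with 3 at an unadjusted p under 0.05 and a median of 0.52, and S100a8 and S100a9 were at 1.96 and 1.71.

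Cyclin-dependent kinase inhibitors are proteins that stop the cell cycle. Their list here also holds Rb1, Rbl1 and Rbl2, which are not such inhibitors, so its counts and median cover both. Among the 10 genes tested of this list, 4 fell, 1 rose and 5 were not called, with 5 positive and 5 negative differences and a median of 0.01 that ran from -0.25 without E14.5 array 1 to 0.24 without E14.5 array 2. Cdkn1c, encoding p57, was at 4.97 and 5.23 and then at 3.27 and 3.69, a fall of 1.62 ± 0.25 (adjusted p = 0.0153). Its call was lost without either E13.5 array or E14.5 array 1, with differences of -1.82 to -1.41 over the single arrays left out. Cdkn2a and Cdkn1b, encoding p16 with p19ARF and p27, fell by 2.25 ± 0.44 and 1.70 ± 0.39, and Cdkn1a, encoding p21, by 1.23 ± 0.19. Cdkn1b lost its call without either E13.5 array or E14.5 array 1, at differences of -1.75 to -1.28, and Cdkn2a without any 1 of the 4 arrays, at -2.69 to -1.80. Cdkn2c, encoding p18, rose by 1.53 ± 0.23 (adjusted p = 0.0153), from -0.96 and -1.28 to 0.44 and 0.38. The cell cycle genes themselves were not called: limma called 0 of 24 for S phase (3 at an unadjusted p under 0.05), with a median of -0.06 and a range of -0.68 to 0.77, and 0 of 24 for G2 and M phase (6 at an unadjusted p under 0.05), with a median of 0.13 and a range of -0.80 to 0.86. The smallest difference called in any gene was 0.65, but members of these lists at -0.80 and 0.86 were not called. The absence of calls therefore does not show that levels were equal.

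Signalling and homeobox genes outside these groups included single large differences. Fgf8, a growth factor of embryonic patterning, rose by 2.25 ± 0.28 (adjusted p = 0.0101), from -1.56 and -1.47 to 1.06 and 0.40. Without either E13.5 array its call was lost, with differences of 1.92 to 2.57 over the single arrays left out. The other called members of 15 FGF pathway genes fell: Spry2, an inhibitor induced by the pathway, by 1.03 ± 0.25, the ligand Fgf18 by 1.02 ± 0.24 and Fgf9 as above. Of 21 inhibin, activin and BMP genes, Smad1 and Id3 fell by 1.26 and 0.94, but a second probe of Smad1 gave 0.56. Esx1, an X-linked homeobox gene, rose by 2.16 ± 0.25 (adjusted p = 0.00857), from -4.94 and -4.28 to -2.50 and -2.40, while Rhox2a, of the X-linked reproductive homeobox cluster with its near-identical copies, fell by 1.18 ± 0.27. Of 16 growth factor and imprinted genes, 3 fell, 0 rose and the median was -0.48. These were Cdkn1c, Ascl2 and Igf1r, while Igf2 was at -0.01 ± 0.29. Of 14 ovarian pathway genes 1 fell, Runx1, at least 1.78-fold lower, and Foxl2, the ovarian transcription factor, differed by -1.04 ± 0.56 (adjusted p = 0.251).

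By size alone, the genes that led the called list were mostly not members of these groups. Syt10, a synaptotagmin of vesicle release, was at 4.83 and 6.42 at E13.5 and at -2.15 and -1.34 at E14.5, a fall of 7.37 ± 0.80 (adjusted p = 0.00763), with neighbouring steps of -0.29 and -0.44. Lalba, the milk protein alpha-lactalbumin, fell by 5.17 ± 0.34, and its neighbouring steps were 0.29 and -0.70. Srrm4, a neural splicing factor, fell by 3.76 ± 0.28, with steps of 0.01 and -0.38 beside it. These 3 genes thus changed by less than 1 in the steps measured within slides. Ap3b2, a subunit of a neuronal vesicle adaptor, fell by 3.40 ± 0.24 after a difference of -1.11. Otx2, a transcription factor of early embryonic patterning, was at least 5.54-fold lower, after a difference of -1.90 in the step before.

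Among the genes that rose most, Sly, a Y-linked gene with many near-identical copies that cannot be told apart here, went from -4.97 and -5.83 to 2.57 and 0.65, a rise of 7.01 ± 0.72 (adjusted p = 0.00682). Clca1, of the chloride channel accessory family, rose by 4.01 ± 0.58. Ccdc113, a component of ciliary structures, rose by 3.45 ± 0.24 and was 2.45 higher again in the step after. Bco2, a carotenoid-cleaving enzyme, rose by 3.60 ± 0.50 after a difference of 2.56. Among genes not well above background on either E13.5 array, Foxa1, a pioneer transcription factor, was at least 11.3-fold higher at E14.5, Hsd17b2, an enzyme that inactivates sex steroids, at least 10.9-fold, and Gsc, the homeobox gene goosecoid, at least 7.56-fold.

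Some genes had every probe called in the same direction. Of those that rose, Chl1, a neural cell adhesion molecule, was at least 10.6-fold higher, with probe differences of 3.72 and 3.40. Tbx15, a T-box factor of mesenchyme, had probe differences of 3.50 and 3.56, and Gstt4, a glutathione transferase, of 3.38 and 4.03. Both were not well above background at E13.5 and were at least 4.65-fold and 4.06-fold higher at E14.5. Ifi27l2a, an interferon-induced gene, rose by 1.92 ± 0.22, and its second probe gave 2.11. Cyp2c40, of the cytochrome P450 family, was at least 3.28-fold higher, but its close relatives may share its probes.

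Genes that fell at every probe included Dppa5a and Hbb-bh1, described above. Ccr3, a chemokine receptor, gave -2.50 and -1.65 at its probes. Kifc5b, a kinesin with a near-identical relative, gave -2.43 and -2.46, and Rpgrip1, a protein of the photoreceptor cilium, gave -2.14 and -1.99. Cited4, a transcriptional co-activator, gave -1.81 and -1.71. Pip5k1a, a kinase that makes a signalling phosphoinositide, was measured by 3 probes, at -2, -1.96 and -1.90, with neighbouring steps of 0.14 and -0.20 at its brightest probe. Fbxw7, which targets cyclin E and MYC for destruction, fell by 1.77 ± 0.18, with its second probe at -1.5 and neighbouring steps of 0.07 and -0.15. Prtg, a protogenin of early neural and mesodermal tissue, fell by 2.02 ± 0.21.

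Other large called differences rested on 1 probe of several. For Prm1, protamine 1, the brightest probe gave -6.28 and the others -0.10 and 0.58. Baz2a, a silencer of ribosomal genes, gave -3.36 beside -0.76 and -0.17, and Rab27a, a GTPase of vesicle transport, gave 3.31 beside 0.21. Among housekeeping genes, 2 of 18 were called, both higher: Ywhaz gave 2.38 at 1 probe and -0.64 at the other, and Eef1a1 gave 1.04 and 0.02. The housekeeping median was -0.07, and it turned to 0.17 with quantile normalization and 0.18 with normexp background correction.

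**Figure D4:**
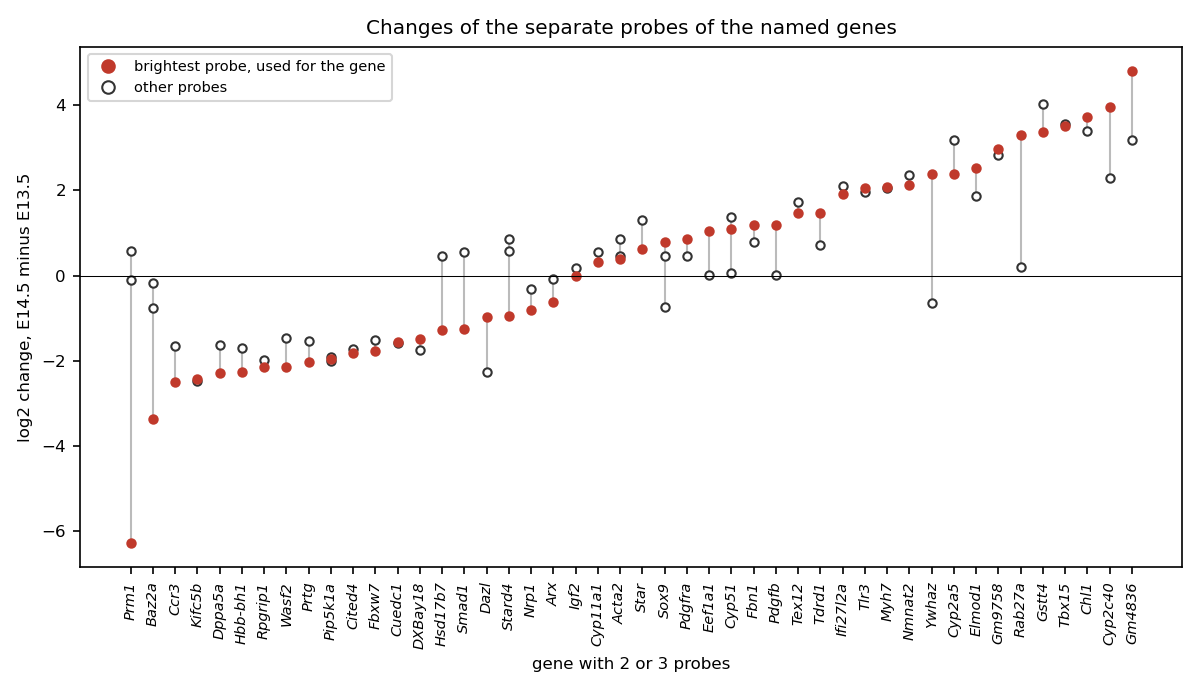
Log2 difference, E14.5 minus E13.5, of every probe of 1 gene per column, for genes picked by the naming rule that have more than 1 probe and are reported here, with the brightest probe in red and the others open, joined by a line. For Pip5k1a the 3 probes lie between -2 and -1.90, whereas for Prm1 they run from -6.28 to 0.58.

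To ask whether the step of this day differed from those around it, it was also set against the mean of both neighbouring steps, with signs kept. Neighbouring steps of opposite sign thus largely cancel in that mean, as for Nanos2 at 3.12 and -3.93. The standard error is also larger than for the step alone, at 1.27 against 0.80 for Syt10. By limma 0 of 21986 genes were called in that comparison (0%), with the smallest adjusted p at 0.0783, while 2995 had an unadjusted p under 0.05. A step that differed from the mean of its neighbours was therefore not shown for any gene by this test, including the genes with the largest differences here. Sizes of the steps without regard to sign were not compared. Side by side, 876 genes (3.98%) were called for E13.5 against E12.5 and 144 (0.655%) for E15.5 against E14.5, comparisons that each lie within slides and share arrays with this one.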

How the data were processed

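Whole gonads were dissected, total RNA was amplified and labelled with Cy3, and cRNA was hybridised to one-colour Agilent arrays, per the labels' protocols. Each deposited scanner file holds spot intensity on a linear scale, from which Agilent Feature Extraction had subtracted background and spatial trends without scaling between arrays, per the file headers. Those headers give release 9.1.3.1 for E12.5 and E13.5 and 9.5.3.1 for E14.5 and E15.5, whereas the submitters' processing notes name 9.5. The authors also deposited a table with 1 ratio per probe and stage, with column medians of 1 for E13.5 and 0.898 for E14.5. Its centring and scaling and the way the arrays of a stage were combined remain unknown, so it served only to check directions.

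Spots of a probe were averaged, log2 values were taken and the 75th percentile of the array over non-control probes was subtracted. A probe was kept if both arrays of any stage showed it well above background (28188 probes), and the probe of highest mean stood for a gene. Symbols came from RefSeq accessions matched to GRCm38.p6, for 22951 of 41174 probes. Probes without a symbol, 18223, kept the identifier of the array and count among all genes. A linear model of all 8 arrays, with stage as its term, was fitted in limma 3.58.1 (lmFit and eBayes, R 4.3.3), which left 4 residual degrees of freedom plus 2.57 from the moderated variance. P-values were adjusted over all 21986 genes by Benjamini-Hochberg. The code was tested on simulated data.

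The comparison, the 29 gene lists and the naming rule were chosen with earlier results of these data known. The rule took symbols whose probes were all called in 1 direction (12 up, 12 down by the smallest probe difference), the 10 largest called each way, the 8 largest bounds each way, up to 3 called each way per list, and a fixed set of defining genes. It picked 141 genes, 119 of them called, of which those with the clearest values or roles are described. Some genes are not reported here.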

Additional observations from a re-analysis of the deposited data

How the results depend on the processing

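The count of 2746 called genes was 779 with only the 4 arrays of the stages (428 higher, 351 lower, 730 of them among the 2746), 884 with no filter on dim probes, and 219 to 1931 with 1 array left out. Other settings stayed within 1.5 times of it: 2331 with the slide as a random block, 1883 with median scaling, 3013 with the percentile over probes above background on all arrays, 3101 with quantile normalization, 3098 with normexp, 2545 with probes above background on all arrays, 2658 with the mean of a gene's probes and 3542 with every probe tested by itself. With the array number as a replicate block it was 1611, 1556 of them among the 2746. The numbers name arrays and are not shown to pair embryos: deviations of same-numbered arrays correlated at 0.07, with only 1 such pairing for these stages. Against the neighbouring steps, 0 genes were called, 1 with median scaling and 0 to 2 with 1 array left out. In the fit of 4 arrays the called members numbered 4 for pluripotency, 2 for Nodal, 3 for meiosis, 3 for mesonephros and 2 for male germ cell fate. Of the 119 called genes picked by the naming rule, 30 kept their call with any 1 array left out, 58 under every other alternative and 28 under all of them. Stard4 became 0.16 with the mean of its probes. Among list medians, the housekeeping median was 0.17 with quantile normalization and 0.18 with normexp, the FGF median -0.09 with the mean of probes, the macrophage median -0.19 without E13.5 array 1, the kinase inhibitor median -0.25 without E14.5 array 1 and 0.24 without array 2, the erythroid median -0.08 without E14.5 array 2 and 0.39 without E13.5 array 1, and the sympathoadrenal median 0.21 without E14.5 array 2 and -0.28 without array 1. Leaving out arrays and fitting 4 arrays give fewer degrees of freedom by construction, and for the other settings the cause was not tested. In the authors' table, made from these same arrays, all 2746 called genes had the same direction, which checks only the processing, and the median difference over all genes was 0.03. With 2 arrays per stage precision is limited, and genes not well above background at a stage have only a bound there.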

Other observations

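The strongest uncalled differences were mostly in genes whose E13.5 arrays disagreed. A large difference stays uncalled only where duplicates of some stage spread widely, so disagreement follows in part from the selection. Of 83 genes that were more than 3 lower at E14.5 without a call, 62 were more than 3 higher on E13.5 array 2 than on E13.5 array 1, whereas 53 genes of that size were called. In the other direction, 11 genes were more than 3 higher without a call and 81 with one. Pou4f1, a neural transcription factor gene, was at -0.41 and 5.24 at E13.5 and at -2.93 and -2.46 at E14.5, and the E12.5 arrays of the same slides were at -0.33 and 6.65. Ago4, an Argonaute protein gene, was at -2.11 and 3.57 and then at -4.39 and -3.92, with E12.5 arrays at -1.96 and 3.48, and its probes ranged from -4.89 to -0.94. These genes were chosen after their values were seen.

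Sympathetic and neural genes were not described above. Of 16 tested, 2 fell, 1 rose and 13 were not called, and the median was -0.03. Th, the tyrosine hydroxylase of catecholamine synthesis, was at -3.53 and -3.56 at E13.5 and at -6.01 and -4.94 at E14.5 and fell by 1.93 ± 0.48 (adjusted p = 0.0473 in limma). Chga, chromogranin A of secretory granules, was at -1.42 and -1.41 and then at -0.70 and -0.59 and rose by 0.77 ± 0.17 (adjusted p = 0.0373). The call of Th was lost in 8 of 14 alternatives, among them the slide as a random block and 3 of the 4 arrays left out, E14.5 array 2 being the exception, at differences of -1.95 to -1.40. That of Chga was lost in 8 of 15, each of the 4 arrays left out included, at 0.71 to 0.83.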
